A study of Mus musculus with 2 samples.

Results

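The 10 genes described here are targets and feedback regulators of bone morphogenetic protein (BMP) signalling: Id1, Id2, Id3, Id4, Msx1, Msx2, Smad6, Smad7, Bmp4 and Bambi. They were chosen by symbol in the platform annotation, out of 22485 named genes, with earlier results of these data known, and all 10 were found. They rest on 11 of the 44397 features on each array, with 2 features for Bmp4 and 1 for each of the others.

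The RNA came from cultured mouse embryonic stem (ES) cells and was hybridised to expression arrays in 2 colours. One array carried a Utx knockout line, which lacks the X-linked H3K27me3 demethylase encoded by Kdm6a, and the other the wild-type line V6.5. On each array RNA of cells given retinoic acid (RA) carried Cy5, and RNA of untreated cells of the same line carried Cy3. Both lines had been grown on gelatin in medium with LIF (leukaemia inhibitory factor), which keeps mouse ES cells undifferentiated, and the RA-treated cells then spent 48 h in medium with 100 nM RA and no LIF. Every ratio therefore sets RA without LIF against LIF without RA, and these effects cannot be told apart. The labels name V6.5 in the record of the knockout too, and whether the knockout line is 1 clone is not stated there.

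With 1 array per line, each gene has 1 ratio in the knockout and 1 in V6.5, and no value of a single line has a replicate check. The direction, RA-treated over untreated, is a likely reading from the dyes, and a bias of 1 dye at a gene would have the same sign on both arrays. Of the genes known to be induced by RA, Stra8 had log2 ratios of 4.91 in the knockout and 4.37 in V6.5, Rarb 2.40 and 2.38, and Cyp26a1 4.27 and 3.54, which goes with that reading. Kdm6a itself had -0.16 in the knockout and -0.39 in V6.5, but a ratio within a line does not check the knockout. Nor do ratios show how abundant an ES cell marker was. In the shared fit of both arrays, described below, 2 of 6 ES cell markers fell, against 7.93% of all genes. At an unadjusted p under 0.05, 5 were lower, and the share of all genes at that threshold is not given here. The 2 that passed were Pou5f1 (-1.58 in the knockout and -0.94 in V6.5) and Klf4 (-2.44 and -1.65). Nanog (-0.16 in the knockout and 0.29 in V6.5), Sox2 (-0.31 and -0.52), Esrrb (-0.28 and -0.61) and Zfp42 (-0.22 and -0.62) did not pass.

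BMP ligands bind paired type I and type II receptor kinases, which phosphorylate Smad1, Smad5 and Smad9. These enter the nucleus with Smad4 and act on target genes. The Id genes are direct targets in many cell types, and their proteins bind bHLH transcription factors and keep them from DNA. In mouse ES cells, BMP signals acting through Id proteins are known to work together with LIF in restraining neural differentiation. Smad6, Smad7 and Bambi are induced by the pathway and dampen it.

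RefSeq promoter sequences of build GRCm38.p6, from 250 bases before to 50 after the annotated start, were at hand for 7 of the 10 members and were searched on both strands for letters that BMP Smads are known to bind. GGCGCC, a GC-rich Smad element and its own reverse complement, was in 2 of these 7 windows, Id2 and Id4, and in 11.9% of all 32851 windows in the table. GTCTAGAC, a palindromic Smad element, was in 1 of the 7, Smad6, where it spans the annotated start from base -4 to base 4, and in 0.213% of all windows. An exact form of the RA receptor repeat, 2 copies of AGGTCA set 5 bases apart, was in 0 of the 7 and in 0.00913% of all windows. It is so rare that its absence from 7 windows tells little, and other letters or spacings were not searched. The exact letters TATAAA, a common form of the TATA box, were in 0 of the 7 and in 13.6% of all. Other forms of the TATA box were not searched, so this does not show that the promoters lack one. A match describes letters and does not show binding. The sequences below are those of the members that passed the shared fit and had a window, so that matching and non-matching promoters can be read side by side. Each shows the 250 bases before the start, for Smad6 with 4 bases more, and capitals mark the 2 Smad elements.
Id2 (chr12:25096093-25096342, minus strand): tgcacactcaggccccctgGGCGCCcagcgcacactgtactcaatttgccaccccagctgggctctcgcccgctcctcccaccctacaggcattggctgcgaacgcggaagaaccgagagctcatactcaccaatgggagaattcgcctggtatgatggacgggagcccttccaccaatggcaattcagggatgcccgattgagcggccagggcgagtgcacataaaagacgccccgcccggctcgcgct
Id3 (chr4:136143572-136143821, plus strand): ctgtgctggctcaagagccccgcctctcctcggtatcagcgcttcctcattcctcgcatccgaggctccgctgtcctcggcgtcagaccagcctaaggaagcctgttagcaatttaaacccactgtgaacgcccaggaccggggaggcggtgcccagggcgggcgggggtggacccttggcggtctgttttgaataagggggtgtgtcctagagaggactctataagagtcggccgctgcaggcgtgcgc
Id4 (chr13:48260866-48261115, plus strand): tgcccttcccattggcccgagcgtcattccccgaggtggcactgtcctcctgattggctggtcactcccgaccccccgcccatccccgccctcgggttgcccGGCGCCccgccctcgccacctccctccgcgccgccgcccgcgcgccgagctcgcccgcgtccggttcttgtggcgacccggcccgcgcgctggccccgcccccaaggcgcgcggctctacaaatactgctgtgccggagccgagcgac
Msx2 (chr13:53472781-53473030, minus strand): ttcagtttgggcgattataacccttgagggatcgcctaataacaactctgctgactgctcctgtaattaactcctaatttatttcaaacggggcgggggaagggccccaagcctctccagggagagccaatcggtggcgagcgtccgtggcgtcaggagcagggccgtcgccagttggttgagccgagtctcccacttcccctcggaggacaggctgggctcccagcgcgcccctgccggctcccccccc
Smad6 (chr9:64022056-64022309, minus strand): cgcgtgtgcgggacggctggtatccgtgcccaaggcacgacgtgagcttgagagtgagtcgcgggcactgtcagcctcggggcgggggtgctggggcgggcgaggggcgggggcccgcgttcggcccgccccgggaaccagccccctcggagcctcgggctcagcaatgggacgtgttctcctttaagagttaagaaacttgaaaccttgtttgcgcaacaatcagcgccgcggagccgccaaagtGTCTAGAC
GGCGCC lies at bases -231 to -226 of Id2, whose ratios were positive, and at bases -148 to -143 of Id4, whose ratios were negative. Id3 and Msx2, both with positive ratios, held neither element in these windows.

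The Id genes split after RA. Id2 had the largest positive ratio of the 10 members in the knockout and in V6.5, Id1 and Id3 were also positive in both lines, and Id4 was the lowest member in both. Id1, Id2 and Id3 rose and Id4 fell in the shared fit.

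Id2, an inhibitor of E proteins and of the tissue-specific bHLH factors that pair with them, had a log2 ratio of 1.90 in the knockout and 1.64 in V6.5. As RNA this was 3.73-fold more after RA in the knockout and 3.12-fold more in V6.5. Its ratio ranked 170 from the top of 22485 genes in the knockout and 200 in V6.5. Id1, the member whose BMP-responsive control region is best studied, had 0.95 in the knockout and 1.04 in V6.5, or 1.94-fold and 2.06-fold. The 2-fold line thus falls between its values, which differ by only -0.09 (knockout minus V6.5). Id3, which overlaps widely with Id1 in expression and function, had 0.75 in the knockout and 1.5 in V6.5. That is 1.68-fold in the knockout and 2.82-fold in V6.5, and its rank from the top was 1131 in the knockout against 243 in V6.5. Id4, the family member best known from neural and mammary progenitors, had -1.48 in the knockout and -1.43 in V6.5. RNA of Id4 was 2.80-fold lower after RA in the knockout and 2.69-fold lower in V6.5, ranking 125 and 119 from the bottom. These are ratios of bulk RNA, so fewer cells of a type and less RNA per cell cannot be told apart.

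**Figure D1:**
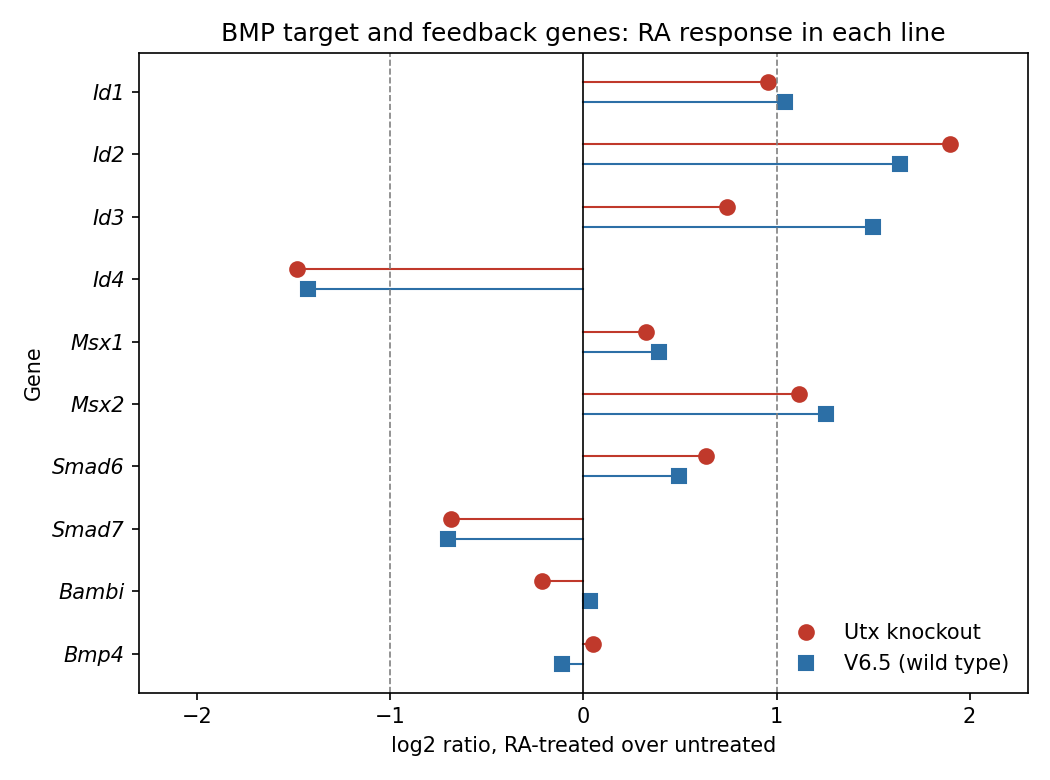
RA response as a log2 ratio, treated over untreated (horizontal axis), of the 10 members (vertical axis), in the Utx knockout (red circles, upper of each pair) and V6.5 (blue squares, lower), 1 array each, with dashed lines at 2-fold. Id2 reaches 1.90 in the knockout and 1.64 in V6.5, Id4 lies near -1.5 in both, and Id3 shows the widest gap between the lines.

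The Msx genes encode homeodomain repressors that BMP induces in limb, tooth and neural crest. Msx2 had a log2 ratio of 1.12 in the knockout and 1.25 in V6.5, which is 2.17-fold and 2.39-fold higher after RA. Its paralog Msx1 had 0.32 in the knockout and 0.39 in V6.5, or 1.25-fold and 1.31-fold. Both ratios of Msx2 thus lay past 2-fold and both of Msx1 under it, with positive values throughout.

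The inhibitory Smads went opposite ways. Smad6, which acts mainly on the BMP branch, had 0.63 in the knockout and 0.50 in V6.5, or 1.55-fold and 1.41-fold more RNA after RA. Smad7, which inhibits both the BMP and the TGF-beta branch, had -0.69 in the knockout and -0.70 in V6.5, or 1.61-fold and 1.63-fold less. Neither reached 2-fold in either line, and each had 1 sign on both arrays. Bambi, a pseudoreceptor that lacks a kinase domain and blocks receptor pairing, had -0.22 in the knockout and 0.03 in V6.5.

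Bmp4, the ligand most often used to activate this pathway in ES cells, had a mean over its 2 features of 0.05 in the knockout and -0.11 in V6.5. One feature read 0.13 in the knockout and -0.15 in V6.5, and the other -0.03 and -0.08. In the 5751 genes with 2 to 9 features, the SD between features of a gene had a median of 0.14 on both arrays. The readings of Bmp4 thus lay on either side of 0, between -0.15 and 0.13.

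Past 2-fold in the knockout were 2 members with positive ratios, Id2 and Msx2, against 2.92% of all genes, and 1 with a negative ratio, Id4, against 1.65%. In V6.5 there were 4 positive members, Id1, Id2, Id3 and Msx2, against 2.52% of all genes, and 1 negative, Id4, against 1.59%. The median ratio of the 10 members was 0.48 in the knockout and 0.44 in V6.5, and that of all genes was -0.02 on both arrays. The members ranged over -1.48 to 1.90 in the knockout and -1.43 to 1.64 in V6.5, so the set did not move one way.

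The shared fit asks in which genes the mean of the 2 ratios differs from 0, and not whether the lines respond alike. It takes the 2 arrays as 2 samples of 1 response in limma, over all 22485 genes, with Benjamini-Hochberg adjustment and a threshold of 0.05. Its error rests on the spread between these lines and not between replicate cultures. The fit draws the spread of each gene towards a value pooled over all genes, with 1 residual and 2.98 prior degrees of freedom. For genes alike in both lines, such as Smad7 and Id4, the SE is therefore mostly that pooled value. Of the 10 members 5 rose and 2 fell, where 8.93% of all genes rose and 7.93% fell. Values after ± are limma's moderated SE. Id2 rose by 1.77 ± 0.097 (log2, n = 2 arrays, adjusted p = 0.00841). Msx2 rose by 1.19 ± 0.081 (adjusted p = 0.0102). Id1 rose by 1.00 ± 0.076 (adjusted p = 0.0112). The ratios of these 3 genes differed by at most 0.26 between the lines, while Id3, at 1.12 ± 0.20, passed with an adjusted p of 0.0392 and the largest SE of the members. Smad6 rose by 0.57 ± 0.080 (adjusted p = 0.0263). Id4 had a shared mean of -1.46 ± 0.074 and fell (adjusted p = 0.00773), as did Smad7 with -0.69 ± 0.073 (adjusted p = 0.0167). Msx1 averaged 0.36 ± 0.075 and stood just outside the threshold, at an adjusted p of 0.0508, and it passed at 0.0373 when each array was centred on its median and at 0.0488 when the arrays were scaled alike. Bmp4 (adjusted p = 0.824) and Bambi (adjusted p = 0.56) did not pass. Tested against a change of 1.5-fold with limma's treat, 1 member rose, Id2 (adjusted p = 0.0231), and 1 fell, Id4 (adjusted p = 0.0247), against 0.872% of all genes higher and 0.431% lower.

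**Figure D2:**
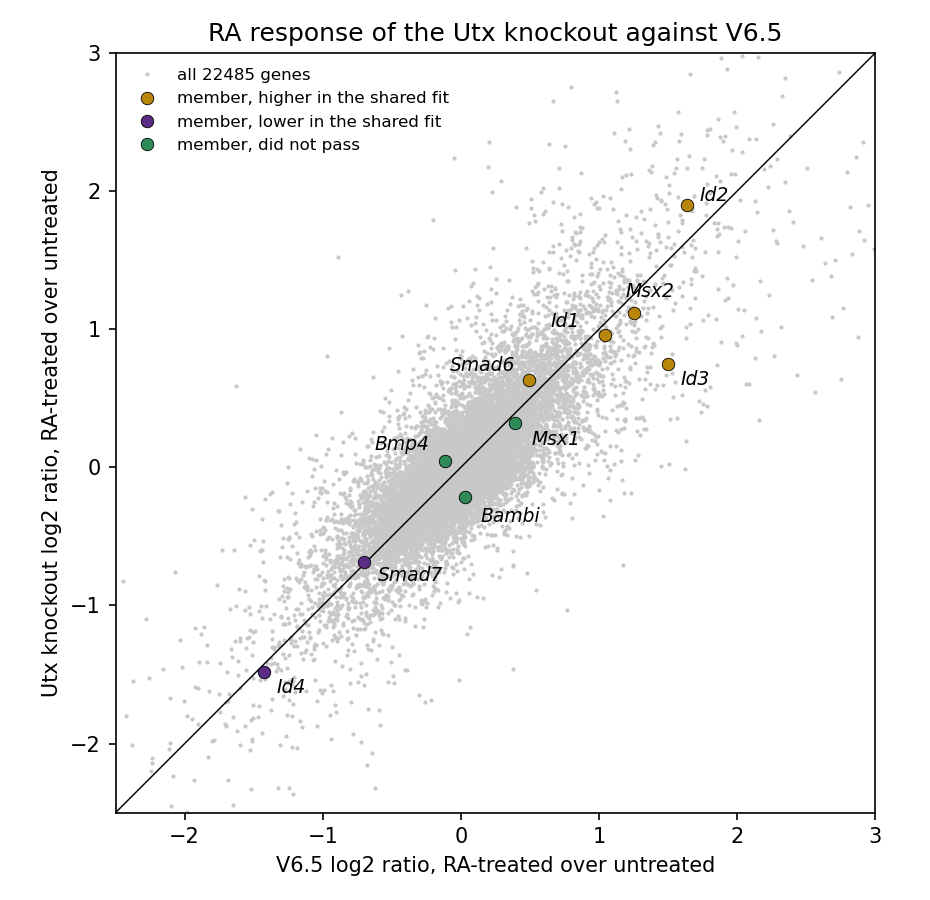
RA response as a log2 ratio, treated over untreated, in the Utx knockout (vertical axis) against V6.5 (horizontal axis), 1 point per gene, all 22485 genes in grey with 83 lying outside the axes, and the line of equal ratios. Members that rose in the shared fit are gold, those that fell purple and those that did not pass green; Id4 and Smad7 lie at the low end near the line, and Id3 lies below it.

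The other comparison the design allows is between lines, and its question is what losing Utx does to the response. With 1 array of each line, loss of Utx cannot be told apart from any other difference between the lines, cultures or arrays. No member differed by 2-fold: 0 of 10 did, against 1.05% of all genes, and with 1 array per line the difference has no test. Of the 10, 4 had the higher ratio in the knockout and 6 in V6.5, with a median difference of -0.06 (knockout minus V6.5). The absolute difference had a median of 0.14 over the members and 0.13 over all genes. In 7 of 10 members it was under 0.2, as in 68.0% of all genes.

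Id3 had the largest difference of the members, -0.75, a response 1.69-fold smaller in the knockout than in V6.5. A larger absolute difference was found in 2.38% of all genes. The SD between features of a gene in this difference had a median of 0.11 and a 95th percentile of 0.37 over the 5751 genes with 2 to 9 features. That SD is between features on the same 2 arrays and does not measure the spread between cultures. Id3 rests on 1 feature, so its own spread between features is unknown. Id2 went the other way, with 0.26, and Bambi had -0.25. Smad7 (0.02), Id4 (-0.06), Msx1 (-0.07) and Id1 (-0.09) had differences within 0.1 of 0. Within the Id family the order of the ratios was therefore Id2, Id1, Id3 and Id4 in the knockout and Id2, Id3, Id1 and Id4 in V6.5. The gap between Id1 and Id3 in the knockout, and that between Id2 and Id3 in V6.5, cannot be set against a replicate spread.

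**Figure D3:**
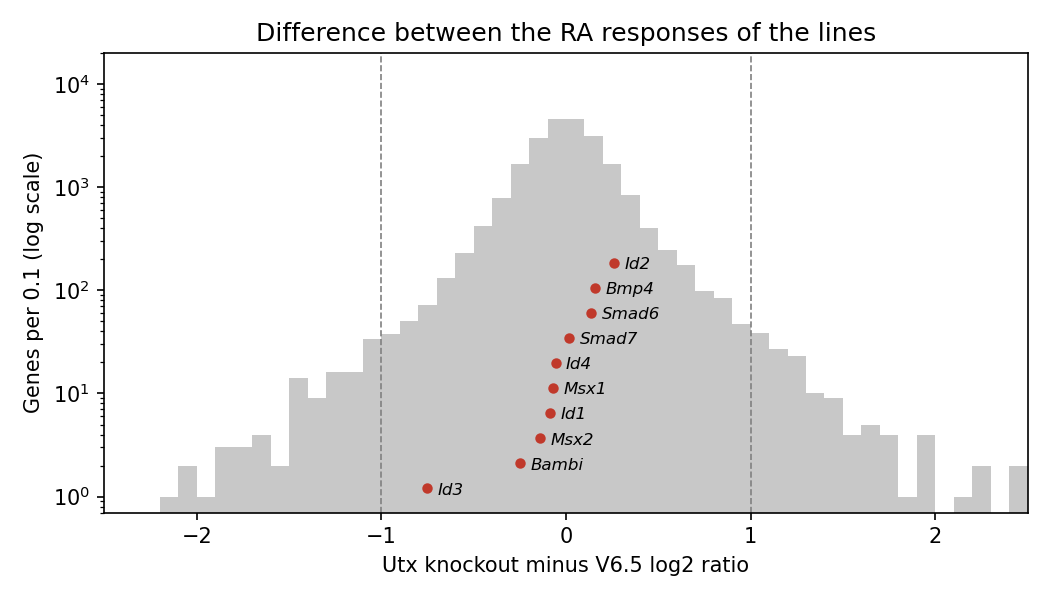
Histogram of the Utx knockout minus V6.5 difference in log2 ratio (horizontal axis) over all genes, in bins of 0.1 with the number of genes on a log axis, and dashed lines at 2-fold. Red points mark the 10 members at their difference, and their height carries no meaning; Id3 at -0.75 stands apart from the others, which lie between -0.25 and 0.26.

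The rest of the BMP pathway was described by role, from lists chosen as background to the members. They were chosen with earlier results of these data known, so their counts do not test an excess over all genes. For every list, 16.9% of all genes passing the shared fit is the comparison. It holds for the adjusted p of that fit only. Counts at an unadjusted p, with single features or with robust eBayes have no share of all genes beside them. Among 11 other BMP family ligands, 2 rose and 0 fell in limma. At an unadjusted p under 0.05 there were 3 up and 0 down, with single features 3 and 0, and with robust eBayes 1 and 0. Bmp8b, a ligand known for germ cell induction in the mouse embryo, had 0.98 in the knockout and 0.77 in V6.5 (adjusted p = 0.0163). Bmp6 had 1.07 in the knockout and 0.50 in V6.5 (adjusted p = 0.0489), a call that was lost with robust eBayes. The list median was -0.02 in the knockout and -0.08 in V6.5, close to that of all genes.

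Of 11 receptors and co-receptors 2 rose and 2 fell. Bmpr1a, the type I receptor that carries most BMP signals in early embryos, rose, with 0.80 in the knockout and 0.70 in V6.5 (adjusted p = 0.0161). Rgma, a BMP co-receptor also known from axon guidance, rose with 1.06 in the knockout and 1.34 in V6.5 (adjusted p = 0.0122). Acvrl1 and Eng, a type I receptor and a co-receptor best known from endothelium, fell together. Acvrl1 had -0.97 in the knockout and -1.01 in V6.5 (adjusted p = 0.0109), and Eng -0.58 and -0.36 (adjusted p = 0.0448).

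Of 12 Smads and intracellular regulators 2 rose and 1 fell in the shared fit over genes, and 3 rose and 1 fell with single features, where Smad5 was added. Of the Smads that carry the signal, Smad1 (0.11 in the knockout and 0.17 in V6.5), Smad5 (0.43 and 0.21), Smad9 (-0.04 and -0.02) and Smad4 (0.20 and -0.03) did not pass in the fit over genes. The corepressor Ski rose, with 0.64 in the knockout and 0.47 in V6.5 (adjusted p = 0.0295). Its relative Skil, measured by 11 features, rose with 0.37 in the knockout and 0.57 in V6.5 (adjusted p = 0.0421). Smurf1, a ubiquitin ligase that targets BMP Smads, fell with -0.52 in the knockout and -0.34 in V6.5 (adjusted p = 0.0481).

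Among the secreted antagonists, which bind ligands outside the cell, those that passed the fit were lower after RA. Of 12 measured, 3 fell and 0 rose in limma, against 7.93% of all genes that fell and 8.93% that rose. Counts at other settings come from the same 2 arrays and have no share of all genes beside them. There were 4 down and 0 up at an unadjusted p under 0.05, and 3 and 0 with single features or robust eBayes. Grem1 had -1.14 in the knockout and -0.99 in V6.5 (adjusted p = 0.0112). Nbl1, of the same DAN family, had -0.88 in the knockout and -0.76 in V6.5 (adjusted p = 0.0149). Fst, which binds activin most tightly and BMPs as well, had -0.49 in the knockout and -0.58 in V6.5 (adjusted p = 0.0266). The organiser antagonists Nog (-0.32 in the knockout and -0.23 in V6.5) and Chrd (-0.05 and -0.19) did not pass. Nor did Fstl3 (-0.47 in the knockout and -0.12 in V6.5), Chrdl2 (0.37 and 0.03), Dand5 (-0.15 and -0.13), Sost (-0.11 and -0.00), Sostdc1 (0.17 and -0.01), Chrdl1 (0.06 and -0.05) or Cer1 (0.00 and -0.00). Of 6 extracellular modulators 0 passed in limma or with robust eBayes, with 2 up and 2 down at an unadjusted p under 0.05 and 1 up and 0 down with single features, and their ratios ranged over -0.26 to 0.85 in the knockout and -0.48 to 0.29 in V6.5.

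Fibroblast markers fell alongside Id4, Smad7 and the antagonists that passed. ES cells are often maintained on fibroblast feeders, although the labels give gelatin here. Of 9 such markers 6 fell and 0 rose in limma, against 7.93% of all genes that fell and 8.93% that rose. The counts were also 6 and 0 at an unadjusted p under 0.05, with single features and with robust eBayes. For these settings the share of all genes is not given here. The list median was -1.32 in the knockout and -1.01 in V6.5, and the ratios ranged over -2.63 to 0.11 and -1.95 to 0.02. S100a4 had -2.63 in the knockout and -1.95 in V6.5, Col1a1 -1.36 and -1.24, Col1a2 -1.69 and -1.25, Col3a1 -1.32 and -1.35, Thy1 -1.46 and -0.80, and Postn -0.86 and -1.01. Pdgfrb (0.11 in the knockout and 0.02 in V6.5), Lum (-0.08 and -0.19) and Dcn (-0.05 and -0.38) did not pass. The part of these cells in the ratios of the BMP pathway genes was not tested.

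Among 13 other genes known to respond to BMP in some tissue, 2 rose and 1 fell. Gata3, a factor of trophoblast and surface ectoderm, rose with 2.97 in the knockout and 2.15 in V6.5 (adjusted p = 0.0126). Dusp9, an ERK phosphatase that BMP is known to raise in mouse ES cells, rose with 1.23 in the knockout and 1.70 in V6.5 (adjusted p = 0.0149). Hey1, a bHLH repressor shared with Notch signalling, fell with -0.53 in the knockout and -0.39 in V6.5 (adjusted p = 0.0366). The list median was 0.10 on both arrays. Gata3 is also 1 of 8 trophoblast markers, of which 2 rose and 0 fell in limma, against 8.93% of all genes that rose and 7.93% that fell. Without a share of all genes beside them, there were 3 up and 0 down at an unadjusted p under 0.05. With single features or robust eBayes there were 2 and 0, Gata3 among them. The other marker that rose in limma was Tfap2c (1.09 in the knockout and 0.86 in V6.5). Cdx2 (0.43 and 0.13), Eomes (0.49 and 0.23), Elf5 (0.05 and 0.12), Krt7 (0.40 and -0.57), Hand1 (0.15 and 0.32) and Ascl2 (-0.19 and -1.02) did not pass. The part of trophoblast-like cells in the ratio of Gata3 was not tested.

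The bHLH factors that Id proteins bind, directly or through E proteins, moved both ways. Of 9 measured, 3 rose and 2 fell. The E protein gene Tcf12 rose with 0.62 in the knockout and 0.42 in V6.5 (adjusted p = 0.0355), while Tcf3 and Tcf4 did not pass. Neurog2, a proneural factor, rose with 0.81 in the knockout and 0.53 in V6.5 (adjusted p = 0.0292), and Neurog3, which drives endocrine fate in the pancreas, with 0.36 and 0.48 (adjusted p = 0.0418). Neurod1, a neuronal differentiation factor, fell with -2.59 in the knockout and -2.31 in V6.5 (adjusted p = 0.0068). Olig2, of motor neuron and oligodendrocyte progenitors, fell with -1.79 in the knockout and -0.95 in V6.5 (adjusted p = 0.0333). Of 6 neural markers 1 rose, Neurog2, and 1 fell, Tubb3 (-0.95 in the knockout and -0.71 in V6.5). At an unadjusted p under 0.05 there were 1 up and 3 down, and with single features 2 up and 1 down. For these 2 settings the share of all genes is not given here. The part of neural cells in the ratios of the bHLH genes was not tested.

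**Figure D4:**
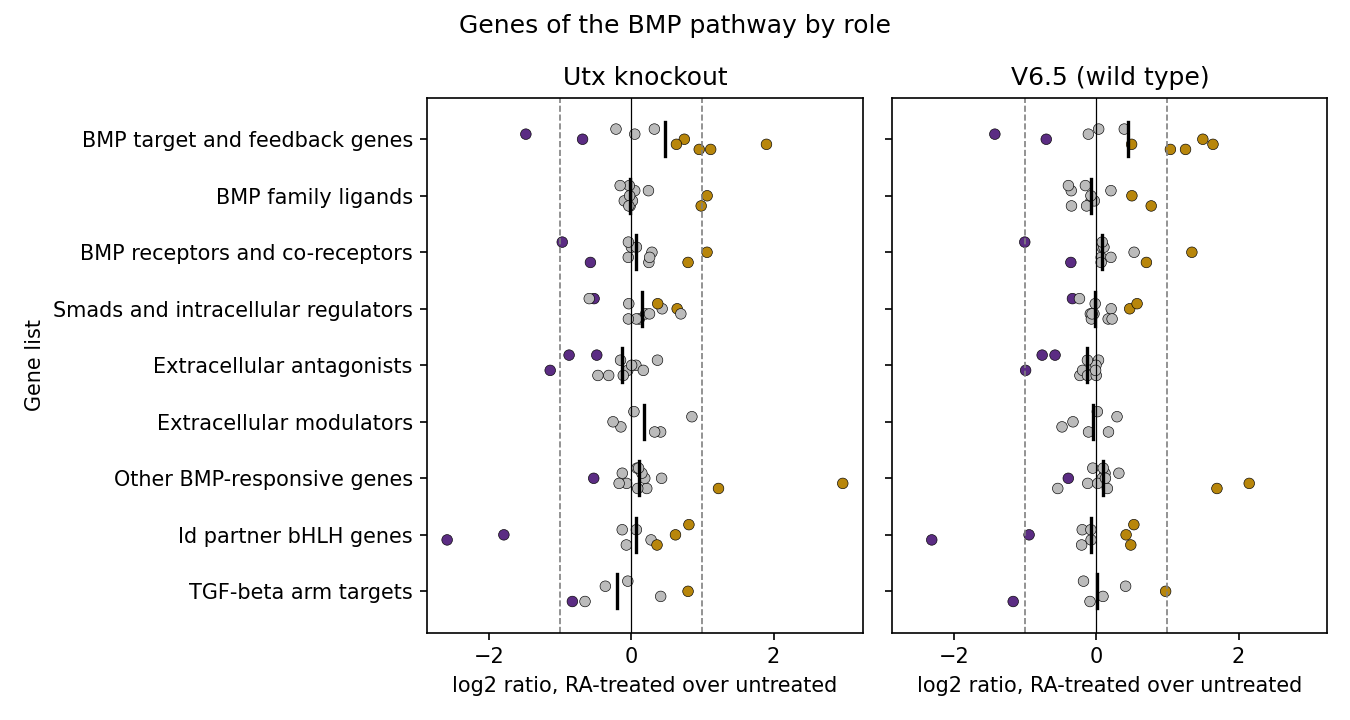
RA response as a log2 ratio, treated over untreated (horizontal axis), for the genes of each list (vertical axis), in the Utx knockout (left) and V6.5 (right), 1 array each, with the list median as a black bar, dashed lines at 2-fold and points spread vertically for sight only. Gold points rose in the shared fit, purple points fell and grey points did not pass; the members' median lies at 0.48 and 0.44, and the medians of the other lists plotted lie between -0.21 and 0.18.

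By Euclidean distance between pairs of ratios over the 2 arrays, the 3 genes nearest to Id2 among 19380 were Ifi27l2a (1.88 in the knockout and 1.68 in V6.5), Rbm24 (1.85 and 1.67) and Adcy7 (1.96 and 1.68). With 2 values per gene such nearness says only that the ratios are alike.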

How the data were processed

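RNA of treated and untreated cells was hybridised together on a 2-colour Agilent array, 1 array for the Utx knockout and 1 for V6.5. The deposited values are log2 ratios, 1 per feature and array; limma is named without version in the submitters' processing notes, and how background and dye were corrected was not stated there. The log base was inferred from the largest value, 5.86, which is a plausible fold only as log2. Each deposited column has a mean of 0.00 and a median of -0.03, and the 2 columns correlate with a Pearson r of 0.84 over features. Spot intensities were not used, so signal over background is unknown, and there are 2 arrays in all.

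Gene symbols came from the platform annotation (33026 with 1 symbol, 11371 with none) and averaged per gene, with no filter on low values. The shared response was fitted with limma 3.58.1 in R 4.3.3 (lmFit and eBayes, intercept, two-sided, with 1 residual and 2.98 prior degrees of freedom). A run on simulated ratios checked only that the fit returned the mean change put in. It held no dye bias shared by the arrays, and the rate of false calls in the real data is unknown. All members are named, and in each list the genes that passed the fit, were past 2-fold in a line or differed 2-fold between lines, with all antagonists and RA targets. Other genes named as not passing (Smads that carry the signal, E proteins, ES cell, fibroblast and trophoblast markers) were added after their values were seen. Members and lists were chosen with earlier results of these data known. Python 3.11.15 served for the other steps.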

Additional observations from a re-analysis of the deposited data

Results flagged for a closer look

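Some genes had ratios of opposite sign in the lines, and the difference was not tested for any of them, since each line has 1 array. Bmp4 had 0.05 in the knockout and -0.11 in V6.5, a difference of 0.16. Bambi had -0.22 in the knockout and 0.03 in V6.5, a difference of -0.25. Among the antagonists, Sostdc1 had 0.17 and -0.01 (difference 0.18), Chrdl1 0.06 and -0.05 (difference 0.12) and Cer1 0.004 and -0.005 (difference 0.01). Smad4 had 0.20 and -0.03 (difference 0.24) and the E protein gene Tcf4 0.28 and -0.07 (difference 0.35). In these genes at least 1 of the ratios was smaller than 0.14, the median SD between features of a gene, which does not measure the spread between cultures. Both ratios were larger than that in Krt7, with 0.40 in the knockout and -0.57 in V6.5 (difference 0.97), and in Pmepa1, with -0.37 and 0.41 (difference -0.78).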

How the results depend on the processing

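The 30 ratios and differences of the members were recomputed with each array centred on its median, with the arrays scaled to one median absolute deviation, with the median of a gene's features and with the feature of largest ratio. All 120 recomputed values stayed within 0.12 of those given. Little else was possible, since the settings on a gene's features return the same value for every member but Bmp4, which alone has 2. Centring subtracts -0.03 on both arrays, and scaling multiplies by 0.99 in the knockout and 1.01 in V6.5. These settings therefore tell little about how far the ratios depend on processing. The counts of members past 2-fold, 3 in the knockout, 5 in V6.5 and 0 between the lines, were the same under these 4 settings. With a threshold of 1.5-fold the count was 7 in the knockout (5 positive and 2 negative, against 12.3% of all genes), 6 in V6.5 (against 12.0% of all genes) and 1 between the lines (Id3, against 4.38% of all genes). In the shared fit 7 of 10 members passed, and 8 passed with median centring (18.9% of all genes) or with scaled arrays (17.9%), where Msx1 was added. Against 1.5-fold with treat 2 passed, since the test asks for a larger change. When only genes with several features were tested, 0 of the 1 member left, Bmp4, passed. Outside treat, the adjusted p of Id3 ranged over 0.0273 to 0.0451. No paired analysis was possible because each line has 1 array, and leaving out an array leaves no residual degrees of freedom. Background correction and normalization could not be varied from ratios alone.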

Other observations

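Targets of the TGF-beta branch, which shares Smad4, Smad7 and Skil with the BMP branch, moved both ways. Of 6 measured genes 1 rose and 1 fell in the shared limma fit. Ccn2, a matricellular protein also controlled by YAP, rose with 0.80 in the knockout and 0.97 in V6.5 (adjusted p = 0.015). Tgfbi, a secreted matrix protein named for its induction by TGF-beta, fell with -0.83 in the knockout and -1.17 in V6.5 (adjusted p = 0.0181). Pmepa1, a feedback inhibitor of the TGF-beta branch, had -0.37 in the knockout and 0.41 in V6.5 and did not pass, and Ltbp3 had -0.65 and -0.09. Pmepa1 and Ltbp3 fall outside the rule for named genes and were chosen after their values were seen.

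Markers of endoderm and mesoderm were counted in the same fit, in which 16.9% of all genes passed. For the counts at other settings the share of all genes is not given here. Of 8 primitive and visceral endoderm markers 0 passed in limma, with 2 up and 0 down at an unadjusted p under 0.05, 0 with single features and 0 with robust eBayes, and their medians were 0.21 in the knockout and 0.01 in V6.5. Of 5 mesoderm markers 1 fell, Tbx6, with -0.67 in the knockout and -0.48 in V6.5, and 0 rose, with 1 up and 2 down at an unadjusted p under 0.05 and 0 up with single features or robust eBayes.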
